A study of Mus musculus with 24 samples.

Results

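The acute phase genes examined here were Saa1, Saa2, Saa3, Orm1, Lcn2, Hp, Cp, Lrg1 and Socs3, 9 of the 24970 gene symbols in the expression tables. They were found by their symbols in all 4 tables and compared between knockout and control. The list was chosen by the knockout against control differences in these same tables, so the differences and calls of these 9 genes are a description of them and test nothing. In sorted alveolar type 2 (AT2) cells and in whole lung Orm1, Saa3, Lcn2 and Lrg1 were higher in every knockout library than in every control library. In AT2 organoids the same 4 genes, and Cp, Hp and Socs3 with them, were lower in every knockout library than in every control library. Such separation upwards held for 25.4% of all genes tested in AT2 cells, 12.5% in lungs at 6 days and 16.4% at 6 months. In organoids 32.0% of all genes were separated downwards. Lrg1 in AT2 cells and Saa3 in lungs at 6 days did not reach an adjusted p under 0.05 in limma. In organoids only Cp and Hp did so.

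RNA was sequenced from mice in which the genes of 3 microRNAs (let-7a, let-7d and let-7f) were deleted in AT2 cells, the surfactant-making cells of the alveolus. Control mice had the genotype Sftpc-CreER/+; R26-tdT/+ and knockout mice let7afd-/-;Sftpc-CreER/+; R26-tdT/+, and mice of both genotypes were given tamoxifen, so the inducible Cre, the tdTomato reporter and the drug were shared by all groups. Cre was driven from the surfactant gene Sftpc, so whole lung also held the other cell types of the organ, which this Cre does not target. Sorted AT2 cells were taken after 6 days of tamoxifen, with 3 libraries per genotype. The labels speak of pools of 3 mice, and their wording leaves unclear whether each library was a pool or each genotype had 3 mice in all. Whole lungs came from 3 mice of each genotype at 6 days and, with booster tamoxifen, from 4 of each at 6 months. Organoids were grown for 14 days in AMM medium from AT2 cells of mice given tamoxifen for 6 days (2 mice per genotype). The labels give no ages for the mice. The title of the series names intermediate cell states and pulmonary fibrosis as the question.

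The acute phase response is a change in secreted proteins that follows infection or injury and is best known from the liver. Interleukin 6 and its relatives act through the receptor chain gp130, Janus kinases and the transcription factor STAT3, and interleukin 1 and tumour necrosis factor act through NF-kappaB. Both branches work together with the C/EBP factors on the promoters of acute phase genes. Airway and alveolar epithelium also make several of these proteins, among them lipocalin 2 and serum amyloid A3. Let-7 microRNAs lower transcripts that hold sites complementary to their seed, and IL6 is a reported let-7 target in human cells.

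Values were TPM, a unit per transcript length in which each library is scaled to the same sum, and depth is unknown. Every difference is on the log2(TPM + 1) scale, knockout minus control, with its standard error (SE). On this scale the added 1 TPM shrinks the fold of a gene with a level near or below it. A gene passed when its adjusted p in the limma fit of all genes tested in that table was under 0.05. Mirlet7d, Mirlet7a-1 and Mirlet7f-1, the precursor genes of the deleted cluster, had a value of 0 throughout the 24 libraries. Mature microRNAs have no poly(A) tail, so the deletion could not be checked here.

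Library-wide measures set 3 libraries apart. In sorted AT2 cells knockout 1 gave 13.3% of its TPM to ribosomal protein genes against 7.36 to 8.61% in the other 5 libraries. In lungs at 6 days knockout 3 held 12.6% haemoglobin against 1.40 to 6.54% in the others. In organoids the summed TPM of 12 AT2 markers was 54574 in control 1 and 17988 in control 2, against 90656 and 83319 in the knockouts. The differences of the acute phase genes are given with and without these libraries, each organoid control being left out in turn.

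The deleted microRNAs share 1 seed, shown here because it defines which transcripts they can pair with. The mature sequences are from RefSeq (GRCm38.p6, minus strand of chromosome 13) at chr13:48538239-48538260, chr13:48537889-48537910 and chr13:48536078-48536099, with bases 2 to 8 in capitals.
let-7a-5p: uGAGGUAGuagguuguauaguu
let-7f-5p: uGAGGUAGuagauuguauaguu
let-7d-5p: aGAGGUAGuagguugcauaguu
The longest annotated 3′ UTR of each acute phase gene was searched for CTACCTC and TACCTCA, the 7-base matches to this seed. None was found in the 9 genes, whose longest 3′ UTRs ran from 113 bases in Orm1 to 1956 bases in Saa3. Those of Orm1, Hp, Saa2, Saa1, Lcn2 and Lrg1 had at most 264 bases. The share of all genes given next is not matched for length, so it sets no expectation for these 9. Of 20644 genes searched the same way, 3125 (15.1%) held a match, among them the known let-7 targets Hmga2, Lin28b, Nras and Igf2bp3. The absence of these letters says nothing about other kinds of site.

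RefSeq gave a promoter, 250 bases before to 50 after the gene start, for 7 of the 9 genes. The C/EBP letters TTGCNNAA stood on either strand in 5 of the 7 (Lcn2, Cp, Saa1, Saa2 and Saa3), and in 10.8% of all 32851 promoters. Cp also had another promoter, at chr3:19956804-19957103, without any of the searched letters. The 7 are counted by gene and the shares of all by promoter, so the measures differ. The STAT letters TTCNNNGAA were found in 1 of the 7 (Socs3) and in 8.3% of all. For NF-kappaB a simplified string was searched, looser than the consensus at some bases and stricter at others. That string was found in 1 of the 7 (Lrg1) and in 5.56% of all. These counts therefore do not describe the NF-kappaB consensus, which was not searched. No searched site overlapped another in the promoters of these 7 genes. A match is a string of letters, not a binding site, and nothing was measured at these promoters.

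The whole promoters of Lcn2, the most abundant acute phase gene in control AT2 cells, and of Saa3, which had the largest knockout difference on the log2(TPM + 1) scale, are printed with the matches in capitals, 5′ to 3′ on the strand of the gene. Lcn2 lies on the minus strand at chr2:32387690-32387989, with its match at positions -216 to -209 from the gene start. Saa3 lies on the minus strand at chr7:46715627-46715926, with its match at positions -99 to -92.
Lcn2 promoter: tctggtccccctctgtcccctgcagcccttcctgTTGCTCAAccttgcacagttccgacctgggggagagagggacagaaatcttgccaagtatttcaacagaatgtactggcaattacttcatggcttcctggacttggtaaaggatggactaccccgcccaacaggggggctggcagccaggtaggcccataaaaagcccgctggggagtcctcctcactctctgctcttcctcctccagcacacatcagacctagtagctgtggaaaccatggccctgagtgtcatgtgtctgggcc
Saa3 promoter: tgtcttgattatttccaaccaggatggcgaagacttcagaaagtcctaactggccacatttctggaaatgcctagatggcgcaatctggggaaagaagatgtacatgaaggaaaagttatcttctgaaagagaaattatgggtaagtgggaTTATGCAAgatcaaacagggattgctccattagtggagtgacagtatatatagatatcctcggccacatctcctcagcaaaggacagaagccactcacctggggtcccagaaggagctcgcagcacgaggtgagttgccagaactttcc
Around the matches of the other 5 genes, shorter windows are given so that the letters can be compared. They are chr7:46743129-46743188 (Saa1, minus), chr7:46751624-46751683 (Saa2, plus), chr3:19957153-19957212 (Cp, plus), chr11:117969486-117969546 (Socs3, minus) and chr17:56121945-56122006 (Lrg1, minus).
Saa1, C/EBP: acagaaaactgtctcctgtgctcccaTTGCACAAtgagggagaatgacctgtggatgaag
Saa2, C/EBP: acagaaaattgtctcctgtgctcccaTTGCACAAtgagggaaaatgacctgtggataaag
Cp, C/EBP: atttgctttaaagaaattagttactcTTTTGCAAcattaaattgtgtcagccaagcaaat
Socs3, STAT: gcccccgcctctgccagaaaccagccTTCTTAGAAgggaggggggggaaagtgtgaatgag
Lrg1, NF-kappaB: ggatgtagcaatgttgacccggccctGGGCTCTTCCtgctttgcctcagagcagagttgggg
The Saa1 and Saa2 promoters were 96% identical over 299 aligned bases and hold the same 8 letters. Their transcripts were 94.4% identical, so reads of one can be assigned to the other and both values are uncertain. Saa3 was more distant, at 76% identity with Saa1 and 75.1% with Saa2. Orm1 and Orm2 transcripts were 91% identical and are uncertain in the same way.

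In AT2 cells 3 of the 9 acute phase genes passed as higher in the knockout (Orm1, Saa3 and Lcn2), where 6.62% of all genes tested did. None passed as lower (1.22% of all genes), and limma gave 4 higher and 0 lower at an unadjusted p under 0.05 (20.5% and 6.75% of all). All knockout libraries lay above all controls for 4 of the 9, the same 3 and Lrg1 (25.4% of all genes). At 6 days in lung, 4 of 8 genes tested passed as higher (3.16% of all) and 0 as lower (3.79% of all; 5 higher and 0 lower at an unadjusted p under 0.05, against 9.85% and 15.3% of all), and 5 of 8 did not overlap (12.5% of all). Of 7 genes tested in lungs at 6 months, 5 passed as higher (15.9% of all) and 0 as lower (13.9% of all; 5 higher and 1 lower at an unadjusted p under 0.05, against 20.7% and 18.7% of all), and the same number did not overlap (16.4% of all). In organoids 2 of 7, Cp and Hp, passed as lower (0.387% of all) and 0 as higher (0.218% of all; 0 higher and 6 lower at an unadjusted p under 0.05, against 19.7% and 16.8% of all), while all 7 lay below all controls (32.0% of all). Saa1 and Saa2 account for the genes not tested.

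The median difference of the acute phase genes was 0.57 in AT2 cells, 1.30 at 6 days and 2.12 at 6 months in lung, and -2.18 in organoids. Over all genes tested it was 0.08, -0.14, -0.00 and 0.06. The low median of all genes at 6 days moved to 0.00 under median-ratio scaling. In AT2 cells 84.4% of all calls were higher, 67.3% under median-ratio scaling and 65.1% under quantile normalization. Quantile normalization also moved this share from 53.5 to 42.5% at 6 months and from 36.0 to 46.8% in organoids.

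**Figure D1:**
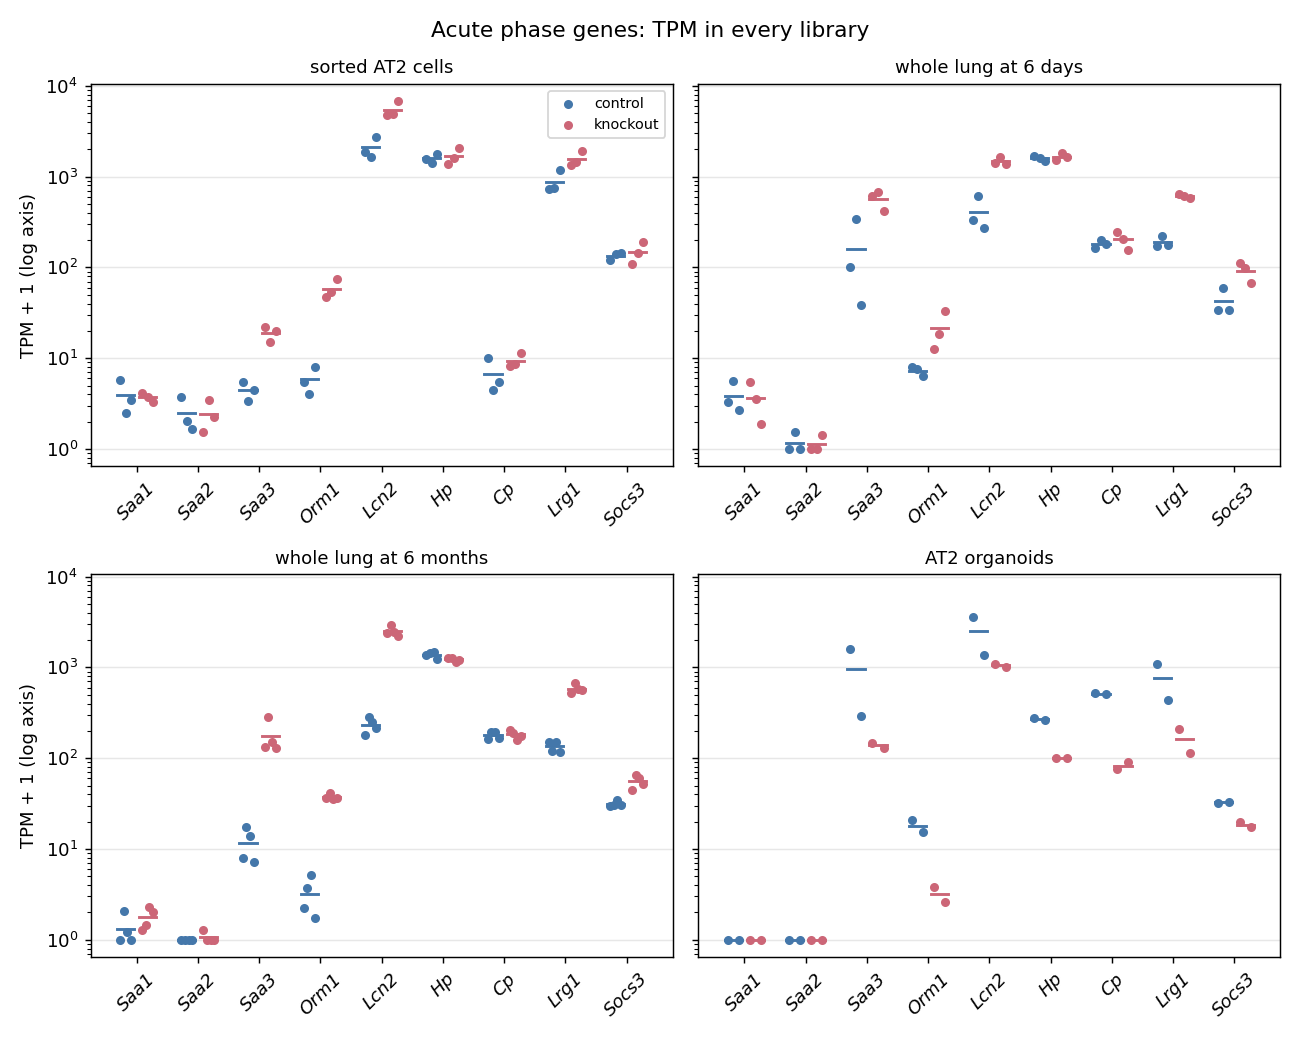
TPM + 1 of each acute phase gene in each library, on a log axis, with 1 panel per kind of sample; points are libraries (blue control, red knockout) and bars are group means. Orm1, Saa3, Lcn2 and Lrg1 are separated upwards in knockouts in the 3 panels of cells and tissue taken from mice, and downwards in organoids; Saa1 and Saa2 lie near the floor.

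Serum amyloid A proteins are apolipoproteins that bind high-density lipoprotein, retinol and bacteria. Saa1 and Saa2 are the main circulating forms, made in the liver, and Saa3 is the form of the mouse made mostly outside it, by epithelium, fat cells and macrophages. In sorted AT2 cells Saa3 was at 4.47, 2.39 and 3.44 TPM in controls 1 to 3 and at 21.2, 14.0 and 19.2 TPM in knockouts 1 to 3. The groups did not overlap, and the difference was 2.12 ± 0.21 and passed (5.28-fold in the means). Without knockout 1 it was 2.00.

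At 6 days Saa3 was at 100.3, 343 and 37.8 TPM in controls and at 614, 673 and 412 TPM in knockouts. Every knockout exceeded every control, but the controls spanned a wide range and the difference of 2.33 ± 0.66 did not pass. It passed under median-ratio scaling (2.49), with library weights (2.91) and without control 2 (3.15), the control with the highest Saa3. Without knockout 3 it was 2.54 and did not pass.

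At 6 months Saa3 was at 7.00, 16.6, 12.7 and 6.12 TPM in controls and at 133, 285, 149 and 129 TPM in knockouts. The difference of 3.93 ± 0.31 passed, a 16.4-fold difference of the means. On the log2(TPM + 1) scale no acute phase gene differed more in any of the 4 comparisons, while with a pseudocount of 0.1 Orm1 at 6 months differed more (4.24 against 4.06). In organoids Saa3 was at 1609.8 and 290.4 TPM in controls and at 146 and 129 TPM in knockouts. Both knockouts lay below both controls, but the difference of -2.31 ± 0.84 did not pass, and it was -1.08 without control 1 and -3.54 without control 2.

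Saa1 and Saa2 stayed near the floor. Saa1 was between 1.47 and 4.75 TPM in the 6 AT2 libraries, between 0.871 and 4.65 TPM at 6 days and between 0 and 1.28 TPM at 6 months. Saa2 was between 0.531 and 2.76 TPM in AT2 cells and at most 0.541 TPM in any lung. Both were listed at 0 in all 4 organoid libraries. Where tested, neither passed (Saa1 0.02 ± 0.28 in AT2 cells and -0.15 ± 0.42 at 6 days, Saa2 -0.04 ± 0.37 in AT2 cells). These small differences turned sign with single libraries left out: Saa1 was -0.07 and Saa2 0.25 without AT2 knockout 1, and Saa1 was 0.26 without knockout 3 at 6 days.

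Orm1 encodes orosomucoid (alpha-1-acid glycoprotein), a plasma carrier of lipids and drugs. In AT2 cells it was at 4.48, 3.03 and 7.02 TPM in controls and at 45.7, 52.9 and 73.2 TPM in knockouts. The mean was 11.8-fold higher, from 4.84 ± 2.02 (SD, n = 3) to 57.3 ± 14.2 TPM, and the difference of 3.35 ± 0.26 passed. No other acute phase gene differed as much in AT2 cells. The value without knockout 1 was 3.49.

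At 6 days Orm1 was at 6.99, 6.55 and 5.37 TPM in controls and at 11.8, 17.7 and 31.9 TPM in knockouts. The controls lay close together and the knockouts spread more widely, above them. The difference of 1.45 ± 0.32 passed. It was 1.09 without knockout 3, which has the highest Orm1 and the highest haemoglobin, and passed. Without control 1, control 2, control 3 or knockout 2 it was 1.36 to 1.52 and did not pass, nor did it without a filter on low values.

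At 6 months Orm1 was at 1.26, 2.69, 4.14 and 0.754 TPM in controls and at 35.5, 40.7, 34.5 and 35.4 TPM in knockouts. The 4 knockouts were within a narrow range, 36.5 ± 2.81 TPM (SD, n = 4), and the difference of 3.67 ± 0.27 passed. In organoids Orm1 was at 19.8 and 14.5 TPM in controls and at 2.81 and 1.58 TPM in knockouts. Here the order was turned, with both knockouts lowest, and the difference of -2.52 ± 0.27 did not pass. It passed without a variance trend and with library weights, and was -2.31 without control 1 and -2.73 without control 2.

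Lcn2 encodes lipocalin 2, which binds the iron carriers of bacteria and so withholds iron from them. It was the most abundant acute phase gene in control AT2 cells. In sorted AT2 cells it was at 1858, 1663 and 2761 TPM in controls and at 4787, 4862 and 6803 TPM in knockouts. All knockouts were above all controls, and the difference of 1.40 ± 0.24 passed. It was 1.24 to 1.34 and did not pass when control 1, control 2 or knockout 3 was left out, and 1.49 without knockout 1. Without a filter on low values it did not pass.

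At 6 days Lcn2 was at 332, 616 and 269 TPM in controls and at 1428, 1660.5 and 1386 TPM in knockouts. The difference of 1.96 ± 0.28 passed, was 2.31 without control 2 and 2.01 without knockout 3, and did not pass without control 1 (1.87). At 6 months Lcn2 was at 181, 287, 248 and 214 TPM in controls and at 2405, 2941, 2428 and 2201 TPM in knockouts. The lowest knockout was far above the highest control, and the difference of 3.43 ± 0.13 had the smallest SE among the genes that differed by more than 3. In organoids Lcn2 was at 3627 and 1353 TPM in controls and at 1083 and 1022 TPM in knockouts. The difference of -1.07 ± 0.50 did not pass and was -0.36 without control 1 and -1.78 without control 2, so its size turned on which control was kept.

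Haptoglobin (Hp) binds free haemoglobin and ceruloplasmin (Cp) is a copper-carrying enzyme that oxidises iron for export. These 2 genes did not move with Lcn2 in cells and tissue taken from mice. Hp was at 1563, 1406 and 1782 TPM in control AT2 cells and at 1361, 1597 and 2058 TPM in knockouts, and the groups overlapped. Its difference was 0.06 ± 0.18 in AT2 cells, 0.04 ± 0.12 at 6 days and -0.17 ± 0.06 at 6 months, and none passed. In lungs it stayed between 1146 and 1807 TPM in all 14 libraries. In lungs at 6 months it passed as lower under quantile normalization (-0.35) and without control 4 (-0.22).

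Cp was low in sorted AT2 cells, at 9.14, 3.45 and 4.52 TPM in controls and at 7.12, 7.74 and 10.5 TPM in knockouts, and the groups overlapped. The overlap came from control 1 alone. In lungs Cp was between 155 and 246 TPM in all 14 libraries. Its difference was 0.57 ± 0.29 in AT2 cells, 0.14 ± 0.19 at 6 days and 0.02 ± 0.08 at 6 months, and none passed. With single AT2 libraries left out the AT2 difference was 0.32 to 0.91 and did not pass. Cp overlaps Hps3 on the opposite strand, and these libraries do not keep the strand, so reads of the 2 genes cannot be told apart where they overlap.

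In organoids Cp and Hp were the acute phase genes that passed as lower. Cp was at 519 and 507 TPM in controls and at 74.3 and 89.4 TPM in knockouts, a difference of -2.64 ± 0.13. Hp was at 276 and 262 TPM in controls and at 99.2 and 99.4 TPM in knockouts, a difference of -1.43 ± 0.10. In both genes the 2 libraries of each genotype lay close together. Neither passed without a filter on low values. With either knockout left out, neither passed, at -2.51 and -2.77 for Cp and -1.43 for Hp; the lone library is then assumed to vary like those of the other genotype.

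Lrg1 encodes leucine-rich alpha-2-glycoprotein, a secreted protein that binds the TGF-beta co-receptor endoglin and promotes vessel growth. In AT2 cells it was at 726, 749 and 1169 TPM in controls and at 1331, 1459 and 1915 TPM in knockouts. The groups did not overlap, and the difference of 0.85 ± 0.22 did not pass. It passed with a filter at 5 TPM, with library weights and without control 3 (1.07), and was 0.96 without knockout 1. At 6 days Lrg1 was at 170.2, 221 and 173 TPM in controls and at 648, 616 and 584 TPM in knockouts. In lungs at 6 months it was at 151, 119.6, 149 and 117 TPM in controls and at 520.1, 679.6, 578 and 557 TPM in knockouts. Both lung differences passed, 1.71 ± 0.14 and 2.12 ± 0.10, and both kept their call in each of the alternative settings and with each library left out. In organoids Lrg1 was at 1096 and 441 TPM in controls and at 207 and 113 TPM in knockouts, -2.18 ± 0.54, which did not pass (-1.52 without control 1 and -2.83 without control 2).

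Socs3 encodes the feedback inhibitor that STAT3 induces and that blocks gp130 signalling. In sorted AT2 cells it was at 119.7, 141 and 142 TPM in controls and at 109, 144.5 and 189.5 TPM in knockouts. The knockouts spanned the controls, and the difference was 0.10 ± 0.18. At 6 days Socs3 was at 33.3, 58.2 and 32.7 TPM in controls and at 111, 96.8 and 65.7 TPM in knockouts. The difference of 1.14 ± 0.27 passed and was 1.41 without control 2 and 1.36 without knockout 3. The call was lost with a pseudocount of 0.1, without a filter, with a filter at 5 TPM and without a variance trend. It did not pass with knockout 1 (0.98), control 1 (1.01), control 3 (1.00) or knockout 2 (1.08) left out. In lungs at 6 months it was at 28.4, 29.5, 33.2 and 29.7 TPM in controls and at 43.2, 64.3, 59.5 and 50.8 TPM in knockouts, without overlap, and the difference of 0.82 ± 0.11 passed. In organoids it was at 31.3 and 32.3 TPM in controls and at 18.7 and 16.4 TPM in knockouts, -0.82 ± 0.12, which did not pass.

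Without sorted knockout 1, Orm1, Saa3 and Lcn2 passed (3.56% of all genes rose), and Hp, Cp and Socs3 were at 0.20, 0.67 and 0.30 and did not pass. Without knockout 3 at 6 days, Orm1, Lcn2, Lrg1 and Socs3 passed (7.19% of all rose), with Hp at 0.04, Cp at 0.32 and Lrg1 at 1.75. Without control 2 at 6 days, which had the highest Saa3, Lcn2 and Socs3 of the controls, Saa3 passed and Orm1 no longer did (2.42% of all rose). Without organoid control 1 all 7 genes tested passed as lower, as did 25.0% of all genes. Without organoid control 2 all 7 again passed, and 13.5% of all. Cp was then at -2.62 and -2.66, Hp at -1.39 and -1.47 and Socs3 at -0.85 and -0.80, and the lone control is assumed to vary like the knockouts.

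**Figure D2:**
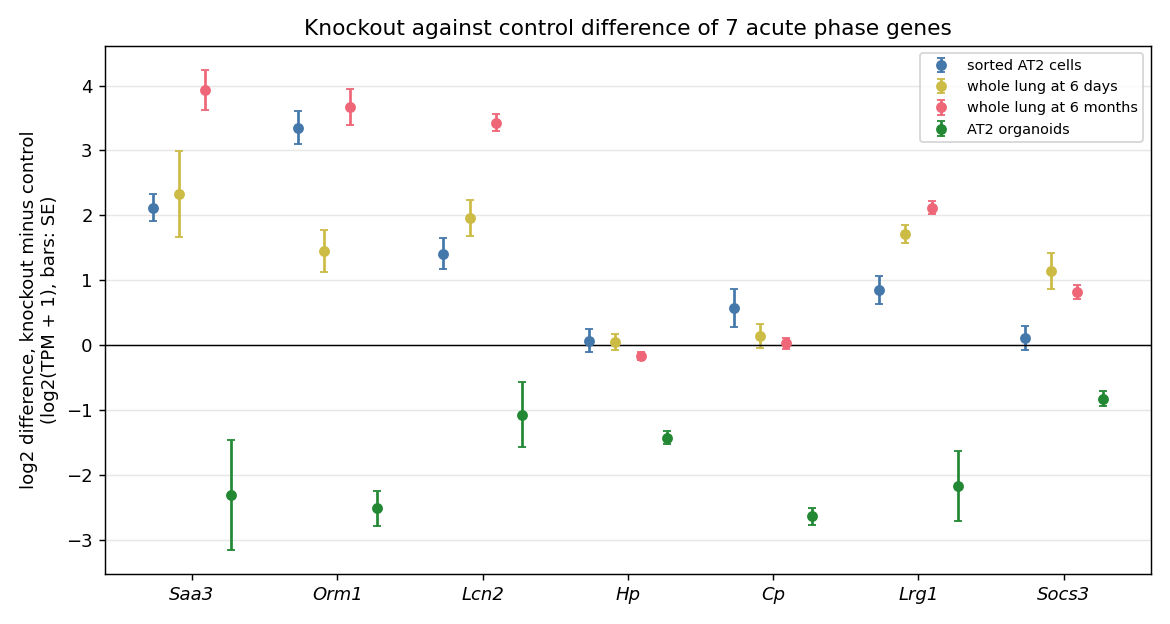
Difference of the 7 acute phase genes tested in all 4 tables, knockout minus control on the log2(TPM + 1) scale, coloured by kind of sample; bars are SE. Organoid points lie below 0 for all 7 genes, while Saa3, Orm1, Lcn2 and Lrg1 lie above 0 in the other 3 kinds and Hp and Cp lie near 0 in whole lung.

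The differences between kinds of sample were computed from the within-table differences, each with its own spread. The effect on Orm1 was larger in sorted AT2 cells than in lungs at 6 days, by 1.90 ± 0.41, and this passed. It was the only 1 of 8 acute phase genes to do so, where 0.705% of all genes had a more positive effect in AT2 cells. The call was lost with a pseudocount of 0.1, a filter at 5 TPM, a shared spread and both other scalings, and when any of 7 of the 12 libraries was left out (AT2 control 2 and knockouts 2 and 3, and all controls and knockout 2 at 6 days). Lcn2, Lrg1 and Socs3 differed by -0.56 ± 0.37, -0.87 ± 0.26 and -1.04 ± 0.33 and did not pass. The Socs3 difference was -1.28 and passed under median-ratio scaling, and -1.25 and passed without lung knockout 3.

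Between 6 months and 6 days in lung, the effects on Orm1 (2.21 ± 0.42) and Lcn2 (1.47 ± 0.31) were larger at 6 months and passed, 2 of 7 genes, where 2.38% of all genes had a more positive effect. Both calls were lost without control 1 at 6 days (2.15 and 1.56). The Lcn2 call was also lost under median-ratio scaling (1.31) and without knockout 2 at 6 days (1.54). Saa3 differed by 1.602 ± 0.73, Lrg1 by 0.40 ± 0.18 and Socs3 by -0.32 ± 0.30, and none of these passed. The mean Lcn2 of knockout lungs was 1491 ± 148 TPM (SD, n = 3) at 6 days and 2493 ± 315 TPM (SD, n = 4) at 6 months. In control lungs Saa3 was at 37.8 to 343 TPM at 6 days and at 6.12 to 16.6 TPM at 6 months. The mice of the 2 times also differed in tamoxifen schedule and were in separate tables, so these levels are set side by side only.

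Between organoids and freshly sorted AT2 cells the effect was more negative in organoids for all 7 genes, and all passed, where 6.08% of all genes did. The differences of effect were -5.86 ± 0.37 for Orm1, -4.43 ± 0.87 for Saa3, -3.21 ± 0.32 for Cp, -3.02 ± 0.58 for Lrg1, -2.48 ± 0.55 for Lcn2, -1.49 ± 0.20 for Hp and -0.93 ± 0.22 for Socs3. With either organoid knockout left out, the calls of Saa3, Lcn2, Hp, Lrg1 and Socs3 were lost, and the differences stayed negative. Saa3 was then at -4.52 and -4.34, Lrg1 at -3.46 and -2.59 and Lcn2 at -2.52 and -2.44. The lone knockout is then assumed to vary like the controls. The Lcn2 call was also lost under quantile normalization (-2.14), those of Saa3 and Lcn2 without AT2 control 2 or AT2 knockout 3, and that of Socs3 without AT2 control 1.

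The order of the acute phase genes by control level, per transcript length, depended on the sample. In control AT2 cells mean TPM ran from Lcn2 (2094 ± 586, SD, n = 3) and Hp (1584 ± 189), whose ranges overlapped, through Lrg1 (881 ± 249.2) and Socs3 (134 ± 12.7) to Cp (5.70 ± 3.02), Orm1 (4.84 ± 2.02), Saa3 (3.43 ± 1.04), Saa1 (2.90 ± 1.68) and Saa2 (1.49 ± 1.11). Each neighbour among the last 5 lay within the spread of the next. In control lungs at 6 days Hp led at 1609 ± 105 TPM, above Lcn2 at 405 ± 185, and Lrg1, Cp and Saa3 (188, 181 and 160.2 TPM) did not differ beyond their spread. At 6 months Hp (1375 ± 99.95), Lcn2 (233 ± 45.3), Cp (179 ± 16.6) and Lrg1 (134 ± 18.2) led. Control organoids had Lcn2 at 2490 ± 1608 TPM (SD, n = 2), Saa3 at 950.1 ± 933, Lrg1 at 768 ± 463 and Cp at 513 ± 8.43. The range of Saa3 overlapped those of the other 3, Cp lay within the range of Lrg1, and Lcn2 lay above Lrg1 and Cp.

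Part of the list was well detected in sorted AT2 cells. Lcn2, Hp, Lrg1 and Socs3 were all above 100 TPM in every sorted AT2 library. Of these, Lcn2, Lrg1 and Socs3 had higher means in control AT2 cells than in control lungs. Mean Hp was 1584 TPM in control AT2 cells, 1609 TPM in control lungs at 6 days and 1375 TPM at 6 months. In knockouts mean Saa3 was 18.1 TPM in AT2 cells and 566 TPM in lungs at 6 days, and Orm1 57.3 and 20.5 TPM. Levels of separate tables are set side by side only. Orm1, Saa3 and Cp were under 10 TPM in all control AT2 libraries, and the mean of Cp was 181 TPM and that of Saa3 160.2 TPM in control lungs at 6 days. Saa1 and Saa2 were scarcely detected in AT2 cells. Together the 9 genes made up 0.397 to 0.587% of TPM in control AT2 cells and 0.767 to 1.11% in knockouts, and 0.29 and 0.718% in control organoids against 0.147 and 0.163% in knockouts. In bulk samples, fewer cells of a type and less RNA per cell cannot be told apart.

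Of 32 other acute phase proteins, those that passed were mostly higher in knockouts and none of those tested was higher in organoids. Shares of all genes are given here for comparison with this and each list below. Those that rose and fell were 6.62% and 1.22% in AT2 cells, and 3.16% and 3.79% at 6 days. At 6 months they were 15.9% and 13.9%, and in organoids 0.218% and 0.387%. At an unadjusted p under 0.05 in limma, 20.5% of all were higher and 6.75% lower in AT2 cells. These shares were 9.85% and 15.3% at 6 days. In AT2 cells 3 of 17 tested rose (Orm2, Serpina3n and Cd14) and 0 fell (9 higher and 0 lower at an unadjusted p under 0.05), with a median difference of 0.84. Cd14, the co-receptor for bacterial endotoxin, rose from 93.4 ± 36.2 to 237 ± 89.8 TPM (SD, n = 3), by 1.33 ± 0.30. Of 24 tested in lungs at 6 days, 7 rose (Orm2, Fgg, Cd14, Mt1, Mt2, Ptx3 and Fgl1) and Hamp fell, with a median of 0.84. Among them Mt2, a metal-binding metallothionein, rose by 1.64 ± 0.39, the fibrinogen chain gene Fgg by 1.58 ± 0.23 and the pentraxin gene Ptx3 by 1.58 ± 0.31. Hamp, the iron hormone hepcidin, fell from 22.2 ± 8.92 to 4.01 ± 2.09 TPM, a difference of -2.22 ± 0.40.

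Among 25 other acute phase proteins in lungs at 6 months, 14 rose and 1, Serpina3f, fell, with a median of 0.44. Orm2, the neighbour and near-copy of Orm1, rose from 0.246 ± 0.284 to 9.46 ± 1.66 TPM (SD, n = 4), by 3.09 ± 0.18. Il1rn, the interleukin 1 receptor antagonist, rose by 2.83 ± 0.14, Itih4, a plasma protease inhibitor chain, by 2.25 ± 0.13 and Fgg by 2.01 ± 0.16. In organoids 10 were tested (Serpina3g, C3, Cfb, Lbp, Cd14, Mt1, Mt2, Steap4, Il1rn and Fgl1). None passed in limma, and 9 were lower and 0 higher at an unadjusted p under 0.05 (16.8% and 19.7% of all genes). Their differences ran from -2.62 to -0.28 with a median of -1.495, and the summed TPM of the list was 2714 and 2585 in controls and 879 and 744 in knockouts. Crp, Apcs and Fgb were listed at 0 in AT2 cells, at 6 days and in organoids.

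Interleukin 6 is the main inducer of acute phase genes in liver. Il6 was at 9.61, 17.5 and 20.9 TPM in control AT2 cells and at 24.6, 29.1 and 67.2 TPM in knockouts. The groups did not overlap and the difference of 1.20 ± 0.39 did not pass. In lungs at 6 days it was at 0.124, 2.45 and 0.155 TPM in controls and at 3.75, 8.22 and 6.45 TPM in knockouts, and rose by 2.06 ± 0.45. At 6 months it was at most 0.563 TPM in controls and between 0.665 and 1.53 TPM in knockouts and was not tested. In organoids it was at most 0.283 TPM in any library. Of the 10 ligands of the family, Clcf1 rose in AT2 cells (1 of 4 tested, by 1.01 ± 0.15), Il6 and Osm rose in lungs at 6 days (2 of 7, Osm by 0.97 ± 0.22) and Osm rose at 6 months (1 of 4, by 0.57 ± 0.14). None passed in organoids (0 of 4; 0 higher and 2 lower at an unadjusted p under 0.05), where Lif was at 32.4 ± 22.4 TPM in controls and 5.59 ± 0.444 TPM in knockouts (SD, n = 2).

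Of 13 receptors and kinases of the family, Cntfr (-1.15 ± 0.20) and Il11ra1 (-0.38 ± 0.10) fell in AT2 cells, where 12 were tested, and Cntfr fell in lungs at 6 days. At 6 months 4 rose (Osmr, Il11ra1, Tyk2 and Il10rb) and 4 fell, with Il6st, Lifr and Il22ra1 among them, by at most 0.60 either way. None of 11 passed in organoids (1 higher and 3 lower at an unadjusted p under 0.05). Stat3 itself did not pass in any kind, with differences of 0.15 ± 0.10, -0.09 ± 0.21, 0.19 ± 0.08 and -0.34 ± 0.14 in the order AT2 cells, 6 days, 6 months and organoids.

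Of 20 other feedback and target genes of STAT3, none passed in AT2 cells (5 higher and 2 lower at an unadjusted p under 0.05). The shares of all genes there were 20.5% and 6.75%. None of 19 tested passed in organoids (2 higher and 7 lower, against 19.7% and 16.8% of all genes). Lungs at 6 days had 3 that rose, Timp1 by 2.56 ± 0.46, Fgg by 1.58 ± 0.23 and the cytokine-signalling suppressor Socs1 by 0.99 ± 0.19. At 6 months 8 rose and 3 fell, where 15.9% and 13.9% of all genes did. The risers included Timp1 (1.15 ± 0.16), an inhibitor of metalloproteinases, and the AP-1 subunit Junb (0.75 ± 0.09). Cebpb, 1 of the C/EBP factors, rose at 6 months by 0.62 ± 0.11 and did not pass elsewhere (0.37 ± 0.22 in AT2 cells, 0.63 ± 0.20 at 6 days and -0.52 ± 0.14 in organoids). Cebpd did not pass in any kind (-0.42 ± 0.18, 0.74 ± 0.22, 0.51 ± 0.18 and -0.80 ± 0.18).

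Of 30 genes of interleukin 1, tumour necrosis factor and interleukin 17 signalling to NF-kappaB, Il1b (1.46 ± 0.35) and Il1rap (0.60 ± 0.14) rose in AT2 cells and none of 28 passed in lungs at 6 days (2 higher and 2 lower at an unadjusted p under 0.05). At 6 months 10 of 28 rose and Rela fell, where 15.9% and 13.9% of all genes did. The chemokine gene Cxcl1 rose by 1.89 ± 0.20, the tumour necrosis factor receptor gene Tnfrsf1b by 1.18 ± 0.09 and Il1a by 1.16 ± 0.14. None of 26 passed in organoids (1 higher and 6 lower). Nfkbiz, a nuclear partner of NF-kappaB known to be needed for the induction of Lcn2, did not pass in any kind (-0.07 ± 0.15, 0.11 ± 0.25, 0.38 ± 0.19 and -0.36 ± 0.14).

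**Figure D3:**
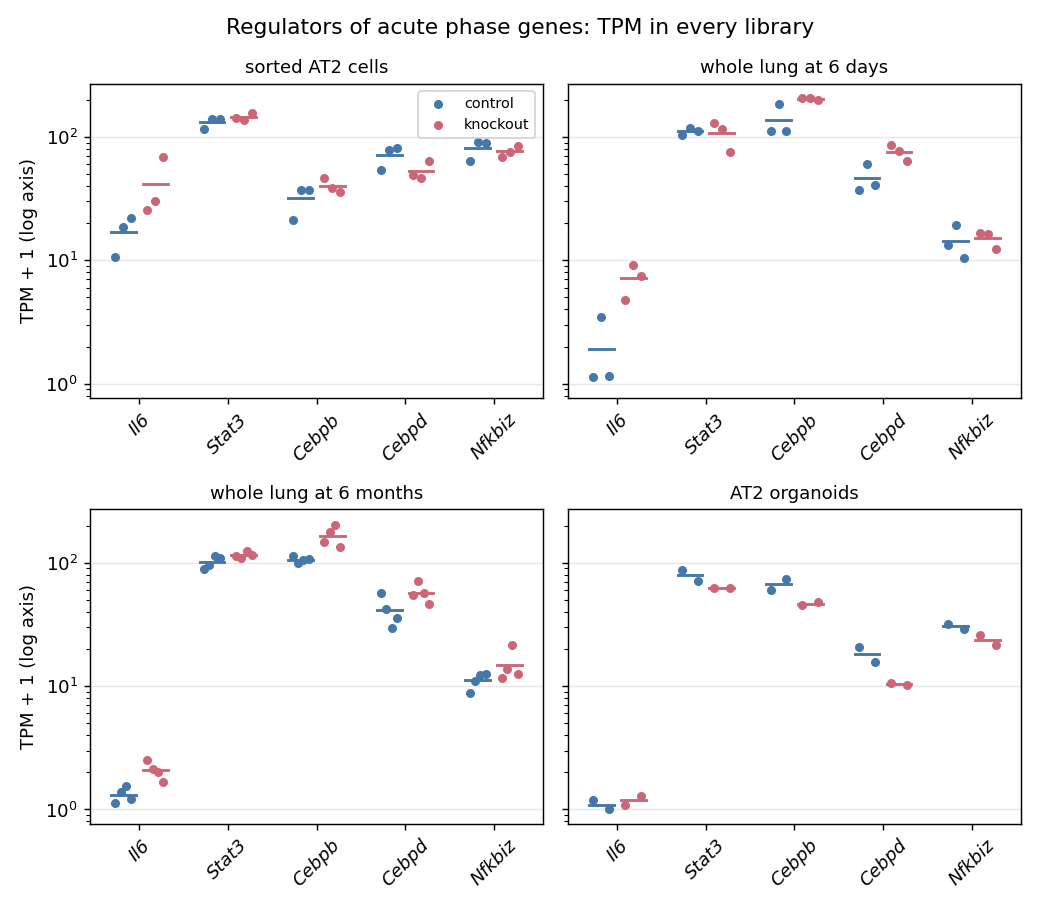
TPM + 1 of Il6, Stat3, Cebpb, Cebpd and Nfkbiz in each library, on a log axis, with 1 panel per kind of sample; points are libraries and bars are group means. Il6 is separated between genotypes in AT2 cells and in both lung panels and is near the floor in organoids, and Stat3 overlaps between genotypes outside organoids.

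Of the receptors and partners of acute phase proteins, Slc40a1, the iron exporter ferroportin, rose in lungs from 12.0 ± 3.66 to 55.8 ± 8.56 TPM at 6 days (2.15 ± 0.22) and from 8.86 ± 1.24 to 32.0 ± 3.19 TPM at 6 months (1.75 ± 0.10). Tfrc, the transferrin receptor, fell at both times (-1.30 ± 0.22 and -0.93 ± 0.08). Tlr2, a receptor for bacterial lipoproteins and serum amyloid A, rose at both times (0.75 ± 0.15 and 1.08 ± 0.10). Lrp2, a receptor that takes up lipocalin 2, rose at 6 months by 0.69 ± 0.12. In all, 2 of 17 rose and 1 fell at 6 days (3.16% and 3.79% of all genes). At 6 months 7 rose and 4 fell (15.9% and 13.9% of all genes). None passed in AT2 cells (0 of 12; 2 higher and 1 lower at an unadjusted p under 0.05) or organoids (0 of 11; 2 higher and 3 lower).

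Markers of other cells moved with these differences, and their part in the differences of the acute phase genes was not tested. In AT2 cells 4 of 10 alveolar macrophage markers rose and 0 fell. Their summed TPM was 41.4 to 75.8 in controls and 163 to 310 in knockouts, with the scavenger receptor gene Marco at 0.452 ± 0.177 and 11.1 ± 5.33 TPM. Of 8 pan-leukocyte markers 3 rose (summed TPM 177 to 244 and 263 to 334). Of 5 neutrophil markers tested 1, Il1b, rose (4.48 to 27.2 and 24.1 to 44.2), and S100a8 did not pass. Of 6 monocyte and interstitial macrophage markers tested none passed. At an unadjusted p under 0.05 in limma, 8 of 10 alveolar macrophage and 8 of 8 pan-leukocyte markers were higher. So were 3 of the 6 monocyte and 2 of the 5 neutrophil markers, and 0 in these lists were lower (20.5% and 6.75% of all genes). Of 12 AT2 markers none passed (0 higher and 0 lower at an unadjusted p under 0.05), with summed TPM of 255508 to 272094 in controls and 168928 to 244634 in knockouts. Among them Sftpc was at 146836 ± 7192 TPM in controls and 108055 ± 21761 in knockouts. Of 11 club and airway secretory markers none passed (0 higher and 2 lower at an unadjusted p under 0.05 in limma). Their summed TPM was 9509 to 19943 in controls and 5772 to 9903 in knockouts. Scgb1a1 was at 13077 TPM in control 1 and at 2818 and 3894 TPM in controls 2 and 3.

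Of 11 alveolar macrophage markers, 4 rose in lungs at 6 days and 1 fell, with summed TPM of 1634 to 1878 in controls and 4025 to 13863 in knockouts. At 6 months 8 rose and 2 fell, with 811 to 1103 and 4593 to 8229. Of 8 pan-leukocyte markers 3 rose at 6 days (1714 to 2206 and 2934 to 3268) and 6 at 6 months (1222 to 1569 and 3173 to 3570), and none fell. Of 12 monocyte and interstitial macrophage markers 3 and 7 rose. Of 11 neutrophil markers 1 rose at 6 days (855 to 1497 and 740.0 to 1721) and 2 rose and 1 fell at 6 months (363 to 627 and 377 to 622), and S100a8 did not pass at either time. Of 12 AT2 markers Sftpd rose and Sftpc and Etv5 fell at 6 days (49646 to 56956 and 31638 to 40729), Sftpc by 1.49 ± 0.14 on the log2 scale. At 6 months 9 of the 12 rose and none fell (30764 to 32823 and 41948 to 50928), and Sftpc did not pass. Of 12 club and airway secretory markers 6 fell at 6 days and 7 fell and 1 rose at 6 months, and Scgb1a1 fell by 1.03 ± 0.13 and 0.90 ± 0.10.

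Of 8 ciliated cell markers 5 fell at 6 days and all 8 at 6 months (2176 to 2331 TPM in controls and 1539 to 1711 in knockouts). Endothelial markers fell in 0 of 10 at 6 days (0 higher and 5 lower at an unadjusted p under 0.05) and in 9 of 10 at 6 months (3968 to 4201 and 2498 to 2909). Of 10 fibroblast markers 3 fell at 6 days, and 6 fell and 1, Col3a1, rose at 6 months (4803 to 5232 and 3136 to 3669). Of 6 mesothelial markers 1 rose and 1 fell at 6 days, and all 6 fell at 6 months (282 to 358 and 179 to 213).

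Hepatocyte markers were low throughout. Their summed TPM was 5.95 to 53.0 in control AT2 cells and 3.94 to 6.17 in knockouts, where Fgb, Serpina1a, Serpina1c, Mup3 and Cyp2e1 were listed at 0, and Alb did not pass in any kind where it was tested. In lungs it was 3.64 to 16.2 at 6 days and 11.6 to 59.0 at 6 months, with knockouts at or below 19.9. In organoids it was at most 5.72.

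In organoids the macrophage and monocyte lists were low. The alveolar macrophage list summed to 15.7 and 13.7 TPM in controls and 27.0 and 23.7 TPM in knockouts, with Ear1 listed at 0. The monocyte list was at most 20.1 TPM with Fcgr1 at 0. The neutrophil list was at 136 and 401 TPM in controls and 57.7 and 41.0 TPM in knockouts, with Camp and Ngp at 0, and Retnlg fell. Only 2 of its 12 genes, Retnlg and Ltf, were tested, and S100a8 was at most 0.723 TPM, so this sum does not show neutrophils. The pan-leukocyte list was at 190 and 71.4 TPM in controls and 182 and 187 TPM in knockouts, and none of its 2 genes tested passed (1 higher and 0 lower at an unadjusted p under 0.05). Airway lists were lower in knockouts: the club and airway list was at 23279 and 36720 TPM in controls and 10026 and 11302 TPM in knockouts, where Scgb3a1 (-2.25 ± 0.21) and Pigr (-2.60 ± 0.18) fell. Ciliated markers were at 94.1 and 164 TPM in controls and 36.6 and 28.5 TPM in knockouts. Sftpc was at 17567 ± 15036 TPM in controls and 55471 ± 5780 in knockouts (SD, n = 2) and did not pass. The part of these shifts in the lower acute phase genes was not tested.

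**Figure D4:**
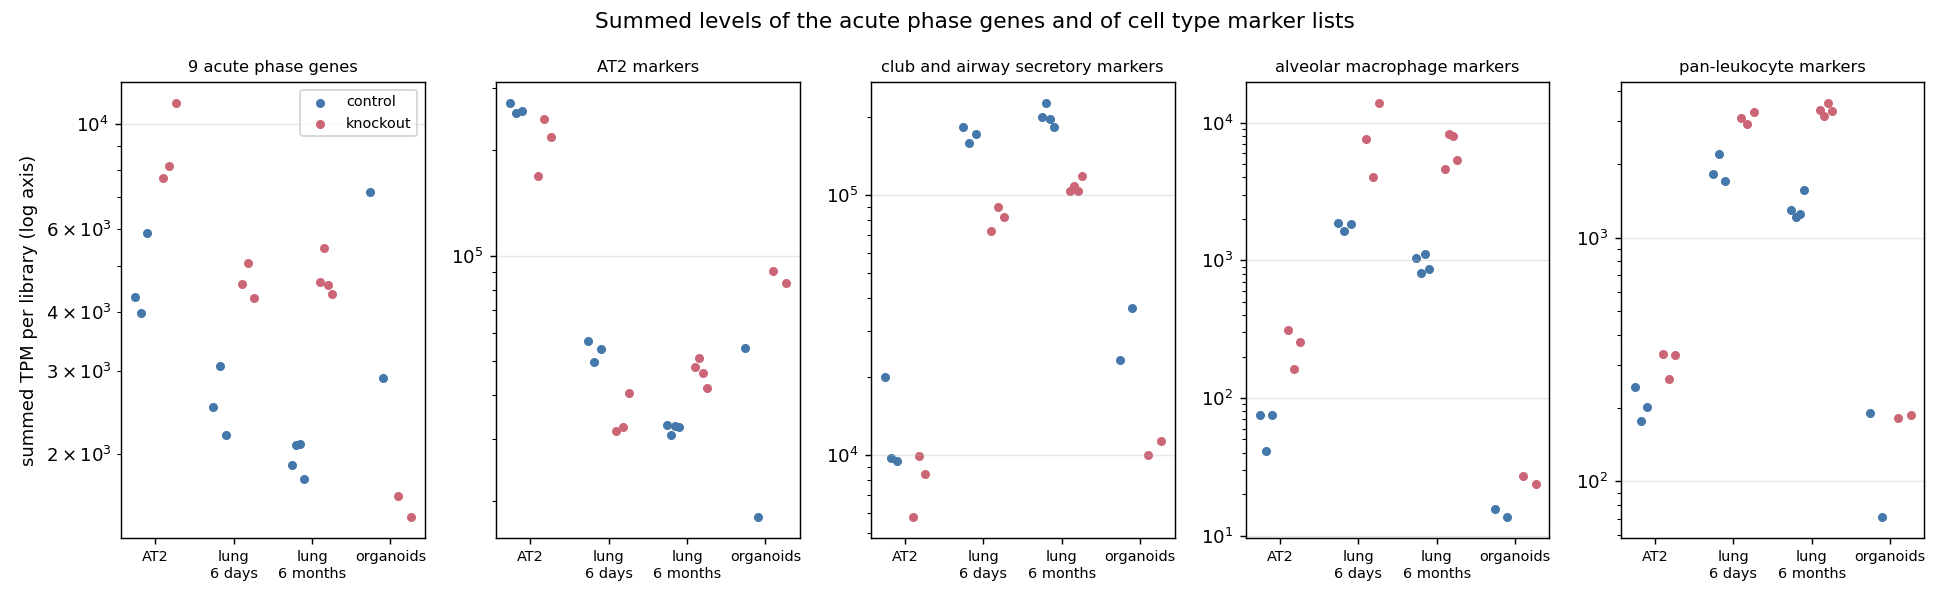
Summed TPM per library, on log axes, of the 9 acute phase genes and of 4 marker lists; points are libraries (blue control, red knockout). The acute phase sum and the macrophage and leukocyte sums lie higher in knockouts in cells and tissue taken from mice; in organoids the acute phase sum is lower in both knockouts, at 1631 and 1471 against 7179 and 2900.

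The genes whose pattern was most like that of the acute phase genes were found by Pearson r with the mean of the 7 genes tested in every table, over 24 libraries after centring each table, among 11126 genes. These libraries share their genotype groups, so the values describe a pattern. Among the 5 most alike were Itga7 (0.94), which encodes a laminin-binding integrin chain, Tnfaip2 (0.93), Cd302 (0.93), a C-type lectin receptor gene, and Sema4a (0.91). Itga7 was at 81.6 ± 18.8 TPM in control AT2 cells and 167 ± 48.6 TPM in knockouts (SD, n = 3), and at 38.9 ± 19.4 and 7.93 ± 2.23 TPM in organoids (SD, n = 2). Of the 7 genes themselves, Lrg1 (0.96) and Saa3 (0.91) followed the mean most closely, and Cp (0.69) and Hp (0.57) least. Each of the 7 is part of that mean, which raises its r, so these values cannot be set against those of other genes.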

How the data were processed

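Libraries were non-stranded TruSeq libraries of poly(A) RNA, per the labels. The authors deposited TPM per gene, 1 table per kind of sample, with 24 libraries in 4 tables; GRCm38 is named in the submitters' processing notes, while aligner, quantifier and sort gates are not stated there. Library sums were 999920 to 999972 TPM, and depth and counting error are unknown. No processing batch is named in the labels.

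The 2 rows per table that repeated a symbol were left out. A separate fit per table was made with limma 3.58.1 (R 4.3.3) on log2(TPM + 1), genotype only, empirical Bayes with a trend, two-sided, with Benjamini-Hochberg adjustment over all genes tested; a gene was tested with at least 1 TPM in as many libraries as the smaller group. Differences between tables used each table's own spread and Welch-Satterthwaite degrees of freedom. The labels state separate mice for lungs and organoids, and p-values measure the spread between these samples. For AT2 cells the pooling is unclear, so whether the p-values there measure a spread between mice is unknown. The fits were tested only on simulated normal values drawn with their own fitted spread, so departures of the data from that model were not tested.

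The 9 genes and the other lists were chosen with earlier results of these data known. Named genes were the 9, up to 4 genes per list with the largest difference that passed at a mean of at least 5 TPM, fixed markers and regulators, and the 5 genes of most alike pattern; 2 genes that these rules and lists hold are not reported here. Other genes that are named to show which list members passed, and Lif, Osm, Cntfr and Il11ra1, were chosen after their values were seen. Sequences, promoters and 3′ UTRs came from RefSeq (GRCm38.p6) and GENCODE M21 (GRCm38), read with Biopython 1.88. The settings changed 1 at a time were the pseudocount (0.1), the filter (none, or 5 TPM), the scaling (median-ratio or quantile), the variance trend, library weights, a replicate block, a shared spread and the libraries kept.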

Additional observations from a re-analysis of the deposited data

Results flagged for a closer look

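In knockout lungs at 6 months, 3 acute phase genes had 1 library far from the other 3 (Dixon's criterion, which flags about 1 in 20 groups by chance). Saa3 was at 285 TPM and Orm1 at 40.7 TPM in knockout 2, and Saa2 was at 0.293 TPM in knockout 1 and listed at 0 in the others. With any 1 library left out, Saa3 and Orm1 kept their calls at 6 months.

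By the test of the difference between tables, the knockout effect passed as different between kinds of sample for 10 gene and kind pairs. The genes were chosen with these effects known, so the calls are a description. Several of them were lost when a setting was changed or 1 library was left out, as given above. Orm1 was 1.90 more positive in AT2 cells than in lungs at 6 days. Orm1 and Lcn2 were 2.21 and 1.47 more positive in lungs at 6 months than at 6 days. The effect in organoids minus that in AT2 cells was -5.86 for Orm1, -4.43 for Saa3, -3.21 for Cp, -3.02 for Lrg1, -2.48 for Lcn2, -1.49 for Hp and -0.93 for Socs3. Organoids and fresh cells also differ in culture and in their number of libraries, which cannot be told apart from the kind of sample.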

How the results depend on the processing

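TPM keep no depth, so no counting error can be given, and 2 organoid libraries per genotype leave little room to estimate the spread. No sign was turned for a difference that passed. Genes that passed in AT2 cells numbered 950, and 370 without a filter, 623 with median-ratio scaling and 613 with quantile normalization. At 6 days 983 passed, and 1801, 1884 and 8395 with median-ratio scaling, quantile normalization and library weights. In organoids 75 passed, and 0 without a filter, 47 with quantile normalization, 183 without a variance trend and 659 with library weights. The acute phase genes passing at 6 days went from 4 to 2 without a filter and 7 with weights (Saa3, Hp and Cp gained at 2.91, 0.17 and 0.22), and in organoids from 2 to 0 without a filter. The 1 gene differing between AT2 cells and lungs at 6 days went to 0 with a pseudocount of 0.1, a filter at 5 TPM, quantile normalization and a shared spread, and the 2 differing between 6 months and 6 days went to 1 with median-ratio scaling. The cause was not tested.

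With 1 library left out, acute phase genes passing ranged from 2 to 4 in AT2 cells, 1 to 4 at 6 days, 5 to 6 at 6 months and 0 to 7 in organoids, and all genes from 187 to 1214, 92 to 2049, 3618 to 3897 and 0 to 6967. The fewest at 6 days followed leaving out control 1, and the most leaving out knockout 3. The differences between kinds ranged from 0 to 2, 0 to 2 and 2 to 7.

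Same-numbered libraries did not deviate together in every pair, so the numbers were not taken as pairs. The r was -0.17 to 0.17 in AT2 cells and -0.15 to 0.0053 at 6 days. At 6 months it was 0.080 to 0.22, positive in every pair. In organoids it was -0.074, and with 2 libraries per genotype both pairs give the same r by construction. With a replicate block 778, 699, 4454 and 399 genes passed, and of the acute phase genes 4, 5, 5 and 4; Lrg1 in AT2 cells, Saa3 at 6 days and Orm1 and Lrg1 in organoids then passed.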
